A study of Homo sapiens with 6 samples.

Results

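The EGF family consists of secreted or membrane-anchored ligands that bind the ERBB receptor tyrosine kinases. The 10 genes described here encode 7 ligands (AREG, EREG, HBEGF, TGFA, BTC, EPGN and NRG1) and 3 receptors (EGFR, ERBB2 and ERBB3). They were chosen by name as members of this family, at a time when results of the comparison of DOX with vehicle in the same table were known, and all 10 were found among the 19792 genes of the deposited table. The levels below are therefore given as a description, with no test.

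RNA-seq was performed on BT-549, an established line of triple-negative breast cancer cells, here carrying a WDR5 shRNA in a puromycin-selected, tetracycline-inducible vector (BT-549/tet-WDR5shRNA). WDR5 is a core subunit of the COMPASS H3K4 methyltransferases. Of the 6 cultures, 3 received vehicle (DMSO at 0.1%) and 3 received doxycycline (DOX) at 500 ng/ml for 7 days, and all 6 came from cells with the shRNA. The values analysed here were the authors' mean normalized counts over all 6 libraries, so levels with vehicle and with DOX were not separated. The spread between cultures is not known, except for some genes with a mean below 10. For these, reads per library were worked out from the mean, without their groups. A mean of this kind gives the same weight to the vehicle and the DOX cultures. For WDR5, the targeted gene, the authors' mean normalized count was 1143, which does not check the silencing, since that mean covers both groups.

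Ligands of the family are made as transmembrane precursors and are released by ADAM proteases. Amphiregulin (AREG), TGF-α (TGFA) and epigen (EPGN) bind EGFR, whereas HB-EGF (HBEGF), betacellulin (BTC) and epiregulin (EREG) bind both EGFR and ERBB4. Neuregulin 1 (NRG1) binds ERBB3 and ERBB4. ERBB2 has no known soluble ligand and acts as the partner of the other receptors, and ERBB3 has little kinase activity of its own. In breast cancer, the absence of ERBB2 amplification and of the estrogen and progesterone receptors defines the triple-negative type.

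The labelled cell line was compared with markers of breast lineages. The hormone receptor genes ESR1 and PGR had authors' mean normalized counts of 0.790 and 0.801. FOXA1 was at 0.516, whereas GATA3, also a luminal factor, was at 362. Among 4 epithelial genes, EPCAM, KRT5 and KRT14 were below 10, at 1.30, 0.909 and 7.11, and CDH1 was at 59.6. The 5 mesenchymal genes ranged from 4093 for CDH2 to 47782 for VIM. Of the genes of other cell types, the leukocyte gene PTPRC was at 44.7 and the endothelial gene PECAM1 at 2.86.

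The genes of 4 of the 7 ligands lie side by side. On chromosome 4 of GRCh38, EPGN (74308470 to 74316789), EREG (74365145 to 74388749), AREG (74445136 to 74455005) and BTC (74744759 to 74794523) are the 4 protein-coding genes of a stretch of 486 kb in GENCODE 44. EPGN, EREG and AREG are transcribed in the same direction and BTC in the opposite one. The start sites of EPGN and EREG are 56.7 kb apart, those of EREG and AREG 80.0 kb and those of AREG and BTC 349 kb. The authors' mean normalized count was 0.762 for EPGN, 215 for EREG, 364 for AREG and 62.4 for BTC. These counts are not divided by length and do not order the genes among themselves. In such bulk values, fewer cells that express a gene and less RNA per cell cannot be told apart.

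RefSeq promoters (GRCh38.p14, from 250 bases before to 50 after the start site) were matched for 8 of the 10 genes, and those of ERBB3 and NRG1 were not. The letters TATAA, the core of a TATA box, began between 40 and 20 bases before the start site, on the strand of the gene, in 3 of the 8 promoters and in 3.91% of all 35116 promoters. The 3 were those of EPGN, EREG and AREG, the neighbouring genes that are transcribed in the same direction. The 30 bases from 45 to 16 bases before the start site are shown for the 4 genes of the stretch, so that the place of the TATAA, in capitals, can be compared. They lie on chromosome 4 at chr4:74308425-74308454 (+) for EPGN, chr4:74365100-74365129 (+) for EREG, chr4:74445091-74445120 (+) for AREG and chr4:74794539-74794568 (-) for BTC.
EPGN: atgacgcttcatgaaaTATAAatgcaacaa
EREG: aggggctccctagTATAAagttcgcagcac
AREG: ccctcccggctgagccTATAAagcggcagg
BTC: gcaggaggaggggggataaataggaggctc
The TATAA began 29 bases before the start site in EPGN and AREG and 32 bases before it in EREG. In the BTC window the exact letters TATAA were not found, but it holds the similar letters GATAAATA. Whether these act as a TATA box was not tested. The 3 promoters with the TATAA differed in base composition. EPGN had a GC content of 37.7% with 4 CpG dinucleotides in 300 bases, EREG 57.7% with 12 and AREG 66.3% with 27, against medians of 58.7% and 14 over all promoters. EPGN had the lowest CpG count of the 8.

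Motifs of factors that the study examined were searched on both strands of the same promoters. For AP-1, the letters TGANTCA were found in 1 of the 8 promoters, that of ERBB2, and in 7.71% of all promoters. N stood for any base, so this search was looser than the AP-1 site, which has C or G there. The ERBB2 promoter of the table belongs to a start site other than that of its MANE Select transcript, the representative transcript agreed on by RefSeq and Ensembl. The CRE letters TGACGTCA, to which CREB and ATF proteins bind, were found in AREG only among the 8 and in 1.85% of all promoters. An NF-κB motif was found in TGFA only among the 8 and in 5.91% of all promoters. The promoters of HBEGF, TGFA and EGFR had no TATAA at that place and were rich in GC, at 75.0%, 75.3% and 75.3%.

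Over all 19792 genes, the authors' mean normalized count ranged from 0.124 to 231159, with a median of 187. Of the 10 family genes, 8 had a mean of at least 10, the level below which a gene was taken to rest on few reads, and the same 8 had a mean of at least 50. Among all genes, 13548 had a mean of at least 10. The family therefore held genes near the top, in the middle and at the very bottom of the range.

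**Figure D1:**
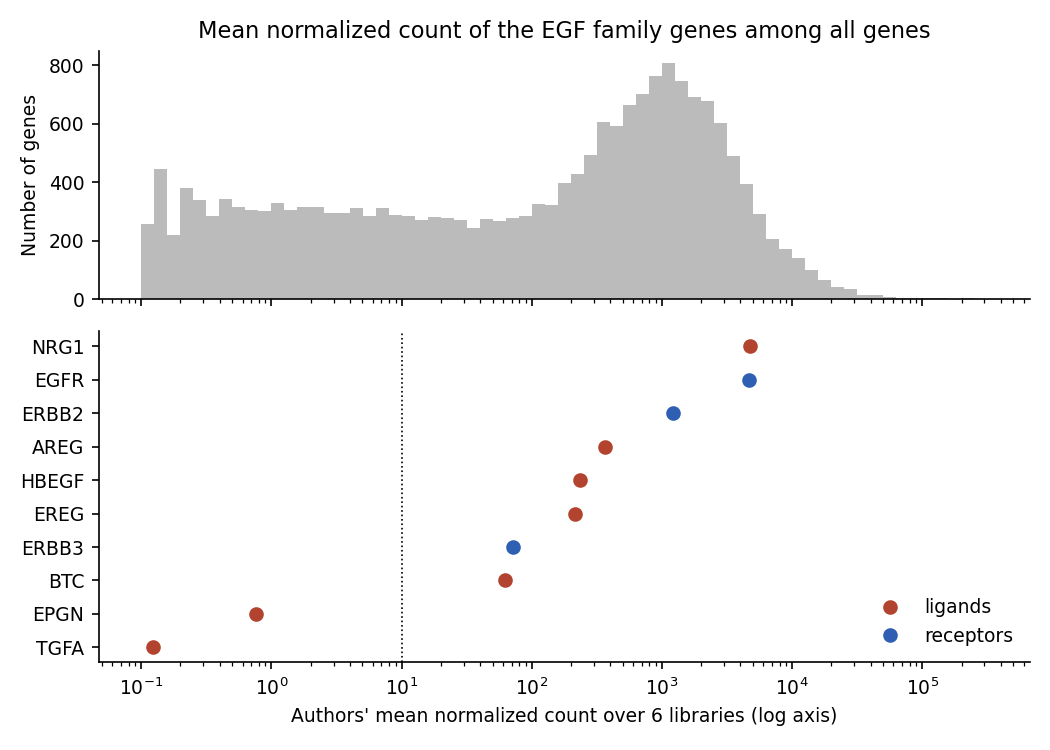
The upper panel gives the number of genes (y axis) by the authors' mean normalized count over 6 libraries (log x axis), and the lower panel gives the 10 family genes on the same axis, with ligands in red, receptors in blue and a dotted line at 10. NRG1 (4708) and EGFR (4632) lie to the right of most genes, whereas EPGN (0.762) and TGFA (0.124) lie left of the line.

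Each gene was first placed among all genes of the table by its count, with no division by length. For the ligand gene NRG1, the authors' mean normalized count was 4708, and 93.9% of all genes were lower. AREG, with 364, was above 57.3% of genes. HBEGF (chromosome 5, 140332843 to 140346603) was at 234 and EREG at 215, above 52.1% and 51.4% of genes, which places both near the median gene. BTC, at 62.4, was above 42.4% of genes. Restricting the ranking to genes with a mean of at least 10 lowered AREG to the 37.6 percentile, HBEGF to 30.1, EREG to 28.9 and BTC to 15.9, whereas NRG1 remained at 91.2.

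TGFA and EPGN were at the limit of detection. TGFA, on chromosome 2 from 70447284 to 70554193, had the lowest value of the table, 0.124, a value that it shared with other genes. The 6 lowest values recurred in 1257 genes, and every gene below 2 times the lowest value had one of these 6. This is the pattern that 1 read in 1 of 6 libraries gives after division by the size factor of that library and by 6. Read in this way, the 6 values give size factors between 0.737 and 1.34, an at most 1.82-fold difference in size factor between libraries. The values do not show which library is which. All 3195 genes with a mean below 1 could be written as whole reads over the 6 libraries in exactly 1 way, to within 1e-12. TGFA then rests on 1 read in 1 library (95% exact Poisson interval 0.0253 to 5.57 reads, for counting error only).

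**Figure D2:**
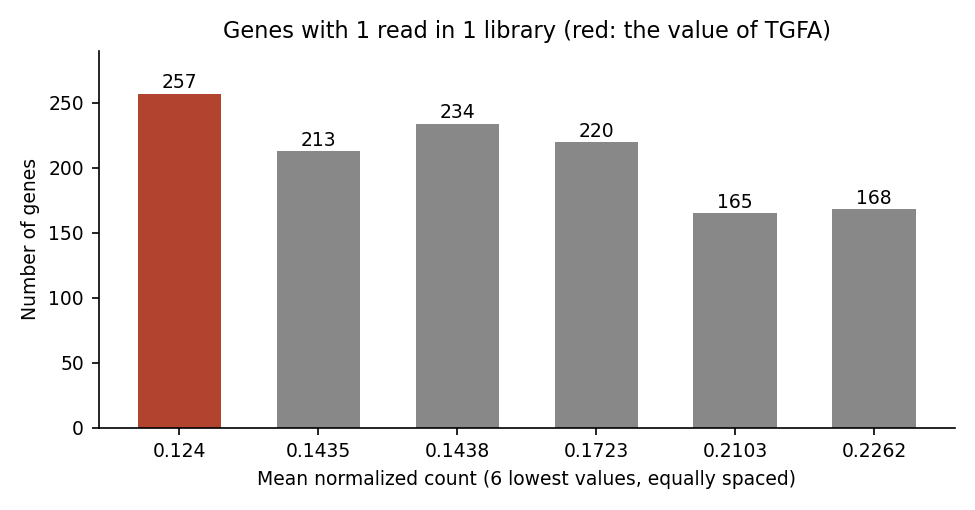
The number of genes (y axis, bars from 0) is shown at each of the 6 lowest mean normalized counts of the table (x axis, equally spaced), each the value of 1 read in 1 library. TGFA is among the 257 genes at 0.124, the red bar.

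EPGN rested on 5 reads over 4 of the 6 libraries, with at most 2 in any of them (interval 1.62 to 11.7 reads). For both ligands, a change between vehicle and DOX would not be detectable at this depth. Family genes outside the 10 were also low. Of genes with a mean from 4 to 10, every 20th was solved in the same way, with the tolerance multiplied by the mean, and all 60 had exactly 1 solution. EGF, the founding ligand, had a mean of 9.69, from 61 reads, with between 3 and 19 per library. NRG2 rested on 33 reads over 5 libraries, with 0 in the lowest and 11 in the highest. NRG3 rested on 9 reads over 5 libraries. ERBB4, the receptor shared by the neuregulins, BTC, HBEGF and EREG, rested on 7 reads over 5 libraries (interval 2.81 to 14.4 reads). NRG4 had no row in the deposited table. These reads belong to libraries whose groups are not known from the values, so they are given as ranges and not compared.

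The receptor genes were placed among all genes in the same way. EGFR, on chromosome 7 from 55019017 to 55211628, had an authors' mean normalized count of 4632 and was above 93.8% of all genes. ERBB2, on chromosome 17 from 39687914 to 39730426, was at 1221 and above 75.7% of genes. ERBB3, on chromosome 12 from 56076799 to 56103505, was at 71.7 and above 43.3% of genes.

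Counts rise with transcript length, so the order of the family genes among themselves was taken after division by length. With the longest transcript of each gene in GENCODE 44, EGFR had 468 normalized counts per kb, NRG1 376, AREG 295, ERBB2 248, HBEGF 99.1, EREG 46.7, BTC 23.5 and ERBB3 11.4. The longest transcript is 12518 bases for NRG1 and 1234 bases for AREG. The ratio of NRG1 to AREG was 12.9 in counts, 1.28 per kb of the longest and 1.33 per kb of the MANE Select transcript, 4.97 per kb of coding length and 22.3 per kb of the shortest protein-coding transcript. NRG1 made up 44.7% of the summed per-kb level of the 7 ligands with the longest transcript and 45.8% with the MANE Select transcript. Its share was 61.8% with the coding length and 93.1% with the shortest transcript. That shortest transcript of NRG1 has 555 bases, fewer than its coding length of 2139. That of AREG has 956 bases, more than its coding length of 822, so the 22.3-fold ratio rests on unlike lengths. EREG and HBEGF have the same shortest and longest transcript, so the 93.1% rests on unlike lengths too. The median of all genes matched to the annotation was 67.6 per kb, and that of the genes with a mean of at least 10 was 179.75 per kb. Per kb, AREG was at the 73.3 percentile of all matched genes, higher than by its count, and ERBB3 at the 34.7 percentile, lower than by its count.

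The order depended on the length that was used. Over 4 definitions of length (longest, MANE Select, coding, and shortest protein-coding transcript), 18 of the 28 pairs among the 8 genes kept their order and 10 did not. The longest and the MANE Select transcripts gave the same order. The shortest transcript is shorter than the longest coding sequence for ERBB3 (237 against 4026 bases) and ERBB2 (497 against 3765). The same holds for EGFR (1418 against 3630) and NRG1 (555 against 2139), so for these genes it does not hold the full coding sequence. EGFR was above ERBB2 by 1.33 to 3.93-fold per kb, and ERBB2 was above ERBB3 by 8.12 to 21.6-fold, under all 4. AREG was above BTC by 3.79 to 12.5-fold under all 4. AREG was also above EREG and HBEGF under all 4, but by only 1.04-fold and 1.18-fold per coding length, against 6.32-fold and 2.98-fold per longest transcript. NRG1 and EGFR changed places, since NRG1 had 2201 and EGFR 1276 normalized counts per kb of coding length. AREG and ERBB2 changed places only with the shortest transcript, as did ERBB3 with BTC, HBEGF and EREG, and BTC with HBEGF and EREG. EREG, HBEGF and ERBB2 changed places among themselves only with the coding length, at 425, 374 and 324 normalized counts per kb. With no error over cultures, neighbours in this order cannot be said to differ.

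**Figure D3:**
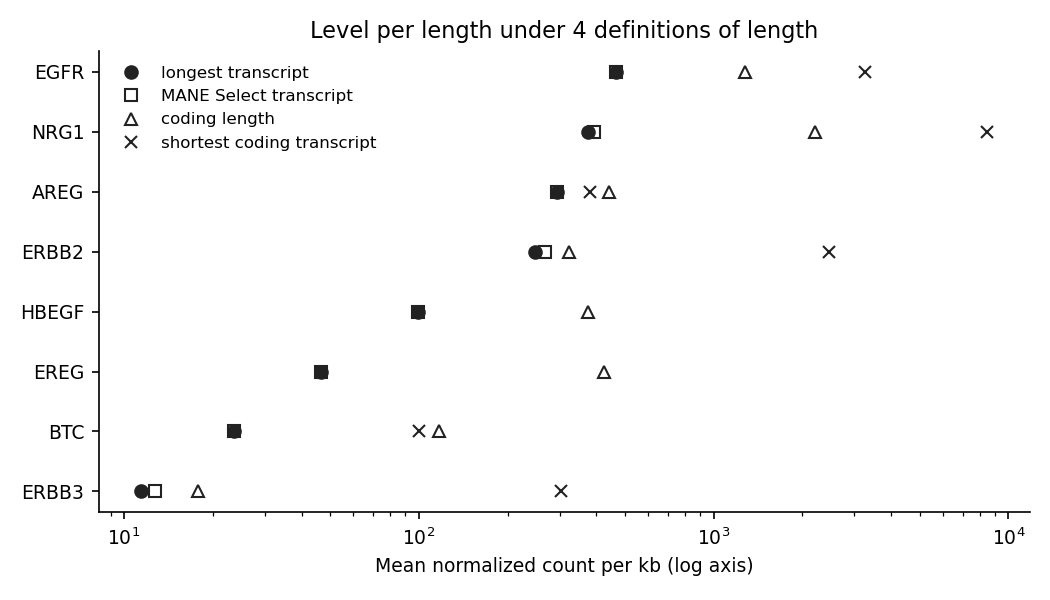
Mean normalized count per kb (log x axis) is shown for the 8 family genes with a mean of at least 10, with 1 symbol for each of 4 definitions of transcript length, and symbols lie on top of each other where lengths are the same. EGFR and NRG1 are the highest 2 genes under every definition, and ERBB3 moves from 11.4 with the longest to 302 with the shortest transcript. That shortest transcript has 237 bases, against a coding length of 4026.

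The pathway around the receptors was described by 32 genes in 5 lists. All 32 had a mean normalized count of at least 10. So did 8 of the 10 family genes described here, 0 of the 4 further family genes that had a row and 13548 of all 19792 genes. Per kb of the longest transcript, the median of the 32 was 364, that of the 3 receptors 248 and that of the 7 ligands 46.7. The proteases ADAM10 and ADAM17, which release the ligands, were at 416 and 516 per kb, whereas RHBDF1 and RHBDF2, which guide ADAM17 to the cell surface, were at 46.6 and 33.0. The adaptor SHC1 was at 8270 per kb and GRB2, which links receptors to SOS proteins, at 620. In the RAS-ERK list, NRAS was the highest of the 9 genes at 2342 per kb and HRAS the lowest at 138. The 6 genes of the PI3K-AKT list ranged from 176 for PIK3CB to 921 for PIK3R1.

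Negative regulators of the receptors differed more widely. ERRFI1 (MIG6), an inhibitor of the EGFR kinase, had 8573 normalized counts per kb, the highest of the 32 genes. Its authors' mean normalized count of 26552 was above 99.6% of all genes. The ubiquitin ligase genes CBL and RNF41, the latter acting on ERBB3, were at 275 and 283 per kb. LRIG1, a transmembrane inhibitor of ERBB receptors, was the lowest of the 32 at 14.7 per kb.

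**Figure D4:**
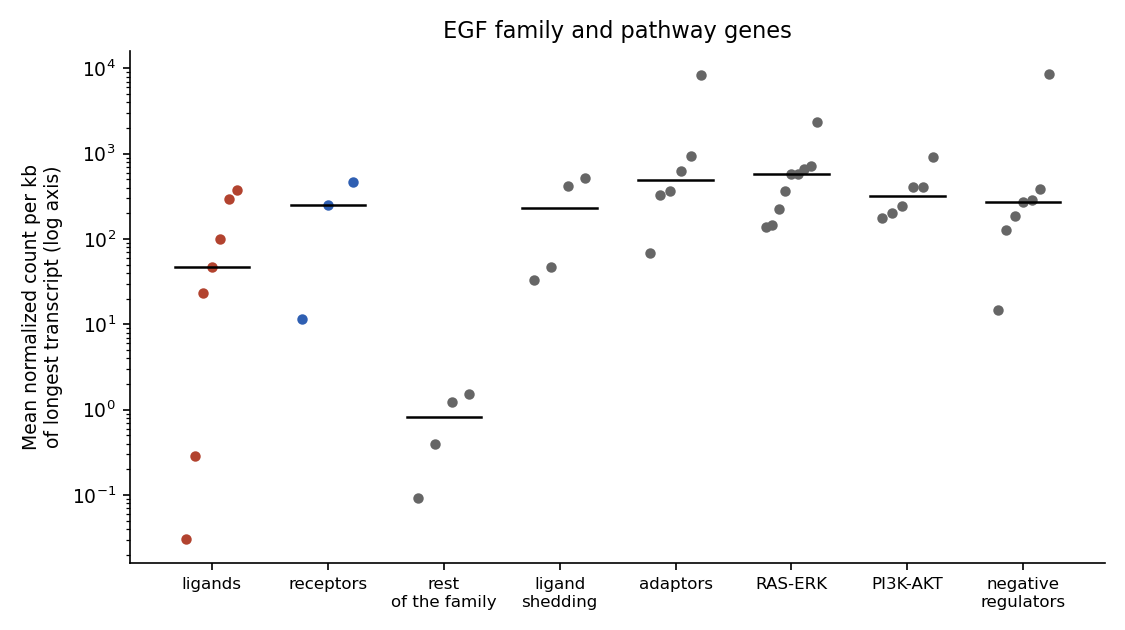
Mean normalized count per kb of the longest transcript (log y axis) is shown for each gene of the ligands (red), the receptors (blue), the rest of the family and 5 pathway lists (grey), with a line at the median of each list. TGFA (0.0301) and EPGN (0.284) lie with the rest of the family, whereas SHC1 (8270) and ERRFI1 (8573) stand above all others.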

How the data were processed

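The authors made TruSeq stranded mRNA libraries from cultures in triplicate, mapped the reads to GRCh38 by STAR and used DESeq2 for normalization. RNA was extracted with Trizol per the paper and with a column kit per the labels. The counter, annotation and filters are not given in the sources used here. The authors deposited 1 table with a row per gene symbol. For each gene, the deposited signal is the mean over libraries of counts that the authors divided by size factors, here called the mean normalized count, and it sums to 26551206 over genes. The other 5 columns hold the authors' own comparison of DOX with vehicle (log2 fold change, standard error, Wald statistic, p-value and adjusted p-value) and were not used.

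The planned edgeR test needs counts of single libraries and was not run. The 10 genes and the lists were chosen with earlier results of these data known, and every gene of each list was kept. Positions and lengths came from GENCODE 44, in which 17729 symbols matched directly, 905 through RefSeq synonyms or letter case and 1158 not at all. Values were called equal within 1e-09. Whole reads were solved for genes below a mean of 10 and tested on simulated data, where 300 of 300 genes with a mean below 1 and 36 of 36 with a mean from 4 to 10 were recovered. Intervals (95%, Poisson) cover counting error only. Python 3.11.15, numpy 2.4.6, pandas 2.3.3, scipy 1.17.1 and matplotlib 3.10.9 were used.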

Additional observations from a re-analysis of the deposited data

How the results depend on the processing

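The number of family genes above the floor was 8 at a mean normalized count of 10 and 8 at 50. Levels per kb rose by at most 1.12-fold with the MANE Select transcript, added after seeing the data, and by 1.31 to 9.10-fold with the coding length. With the shortest protein-coding transcript they rose by up to 26.4-fold, and ERBB3 moved most. That transcript of ERBB3 has 237 bases, fewer than the 4026 of its coding length. Per kb in place of per gene, NRG1 moved from the 93.9 to the 77.6 percentile and AREG from 57.3 to 73.3, the largest shifts in each direction among the 10 genes. No paired analysis was possible because the values used here are means over all 6 libraries. For the same reason the alternatives planned for a test of DOX against vehicle (other size factors, no filter on low counts, leaving out each library) were not run.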
